A study of Homo sapiens with 4 samples.

Results

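The glutathione, thioredoxin and pentose phosphate genes examined here are 48 genes. They keep a cell's thiols reduced, make the NADPH this needs, remove superoxide, peroxides and reactive carbonyls, or belong to the NRF2 transcription factor pathway. They were chosen by name, with earlier results of these data known, and all 48 were found among the 33886 gene symbols to which the deposited transcripts could be assigned. The cells were HK-2, an immortalised human line derived from renal proximal tubule, carrying a Tet-On construct from which doxycycline switches on HA-tagged PRCC-TFE3, a fusion protein of translocation renal cell carcinoma. Of the libraries of polyadenylated RNA, 2 came from cells kept 24 h without doxycycline, named Doxy(-), and 2 from cells kept 24 h with 0.2 microg/ml doxycycline, named Doxy(+). Both groups carry the construct, and no doxycycline-treated HK-2 cells lacking it were analysed here, so doxycycline and the fusion protein cannot be told apart. The labels number the libraries of a group 1 and 2 without stating whether they are separate cultures of 1 clone, so the p-values measure only the spread between these libraries, which may be technical.

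The libraries held between 14042545 and 16618401 estimated reads, and 0.926% to 0.987% of the reads assigned to genes lay on the 48 members. TFE3 stood at 66.9 and 69.0 CPM in Doxy(-) against 367 and 322 CPM in Doxy(+), a log2 fold change of 2.34 (edgeR adjusted p 4.37e-05, SE 0.0719), whereas PRCC was not called (0.15, edgeR adjusted p 0.412). CPM is the number of reads per 1000000 after TMM scaling and serves to compare 1 gene between libraries, while TPM also divides by transcript length and serves to compare genes. Of 11 proximal tubule markers found, 4 reached 1 TPM in every library, among them PAX8 (398 to 462 TPM) and GGT1 (93.1 to 117 TPM). The transporters SLC22A6 and SLC22A8 were listed at 0, and LRP2, CUBN and AQP1 stayed under 1 TPM, so the libraries lacked several defining transcripts of the mature tubule. Of 5 epithelial markers, 4 reached 1 TPM in every library, and their list summed to 1441 to 1465 TPM in Doxy(-) and 1204 to 1205 TPM in Doxy(+). The sums were 5.83 to 8.18 TPM for distal nephron, and at most 0.407 TPM for collecting duct, 0.535 TPM for podocyte, 1.14 TPM for endothelium and 15.5 TPM for stroma. The immune list summed to 174 to 237 TPM, nearly all of it CD68, a lysosomal glycoprotein, with CD3E at 0 and PTPRC under 1 TPM. The epithelial sum was lower and the CD68 level higher in both Doxy(+) libraries, and the part of either in the results was not tested.

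As background, glutathione is a tripeptide built from cysteine, glutamate and glycine, and glutathione and thioredoxin both pass electrons from NADPH to the enzymes that destroy peroxides. The oxidative branch of the pentose phosphate pathway, malic enzyme and isocitrate dehydrogenase regenerate that NADPH in the cytosol. NRF2, encoded by NFE2L2, pairs with small MAF proteins on antioxidant response elements in the promoters of many of these genes, and KEAP1 marks it for destruction when the cell is not stressed. Proximal tubule cells are rich in mitochondria and in glutathione metabolism, and TFE3 itself is a regulator of lysosomal and autophagy genes that binds E-boxes.

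After induction 12 of these genes differed between the groups, each by less than 1 on the log2 scale. Of the 48 members, 42 had enough reads to be tested. At an edgeR adjusted p under 0.05, 7 were higher in Doxy(+), namely SOD2, OSGIN1, GPX3, MAFG, IDH1, PRDX2 and GPX4, and 5 were lower, namely SLC7A11, GCLM, AKR1B1, PRDX1 and PGD. The 7 are 16.7% of the 42 tested, where 9.81% of all 13542 genes tested were higher, and the 5 are 11.9%, where 9.59% of all genes were lower. The remaining 30 members were not called. With the further limit of a log2 fold change over 1 in size, 0 members were called by edgeR in either direction. Of all genes, 1.50% were higher and 0.473% lower past both limits. DESeq2 likewise put 0 members past both limits. By edgeR 17 members had an unadjusted p under 0.05. The share of all genes at that limit is not given here, so the 17 are no result about the members. The median log2 fold change was 0.01 over the 42 members and 0.000723 over all genes tested. The levels of the groups did not overlap for 19 members that were higher in Doxy(+) and 15 that were lower, beside 31.1% and 30.1% of all genes.

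**Figure D1:**
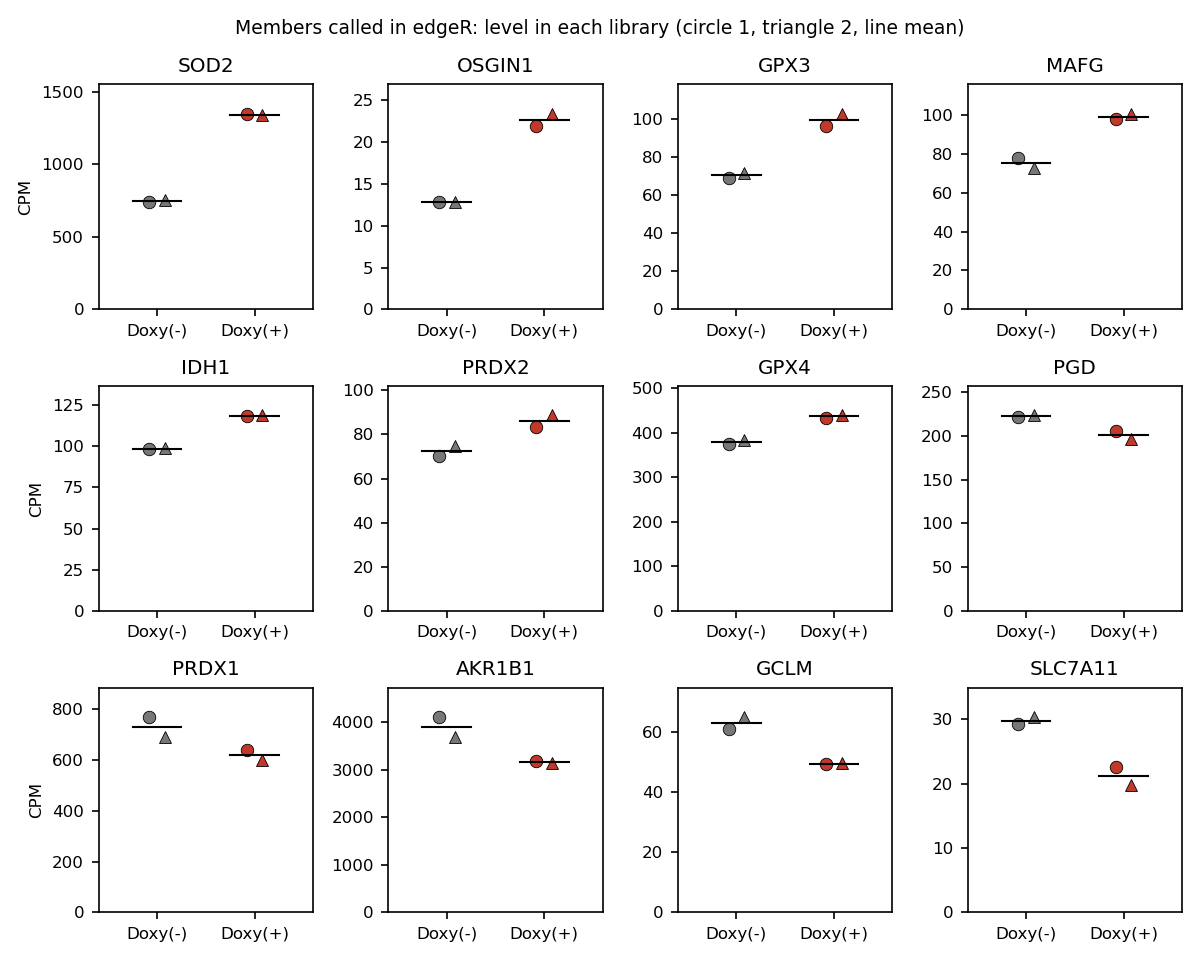
Level in CPM (vertical axis, from 0) of each of the 12 called members in the 2 Doxy(-) and 2 Doxy(+) libraries, where a circle is library 1, a triangle library 2 and a line the group mean. In each panel both Doxy(+) points lie on one side of both Doxy(-) points, with the largest log2 fold changes for SOD2 at 0.84 and OSGIN1 at 0.82 and the smallest for PGD at -0.15.

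The calls were set against other tests and against fits without 1 library. For the latter the share of all genes called is not given here, so their counts are no result about the members. Limma with 1 variance prior for all genes, run as planned on log2(TPM + 1) and on log2(TPM + 0.1), called 0 members, and called 68 and 14 of the 13281 genes it tested. When limma with a variance trend was run on log2(TPM + 1), an alternative added after the data had been seen, 6 of the 7 higher members were called (SOD2, OSGIN1, GPX3, MAFG, IDH1 and GPX4) and 0 of the 5 lower, with 5 members lower at an unadjusted p under 0.05. Each of the 12 kept its direction in every setting tried. All settings reuse these 4 libraries, in which the CPM of the groups did not overlap for any of the 12. A kept direction is therefore no independent support. The 4 fits that leave out 1 library called 4 to 9 higher and 1 to 6 lower members, with 4 higher without Doxy(+) 1 and 1 lower without Doxy(+) 2. In these fits SOD2, OSGIN1, GPX3, MAFG and AKR1B1 stayed called each time.

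**Figure D2:**
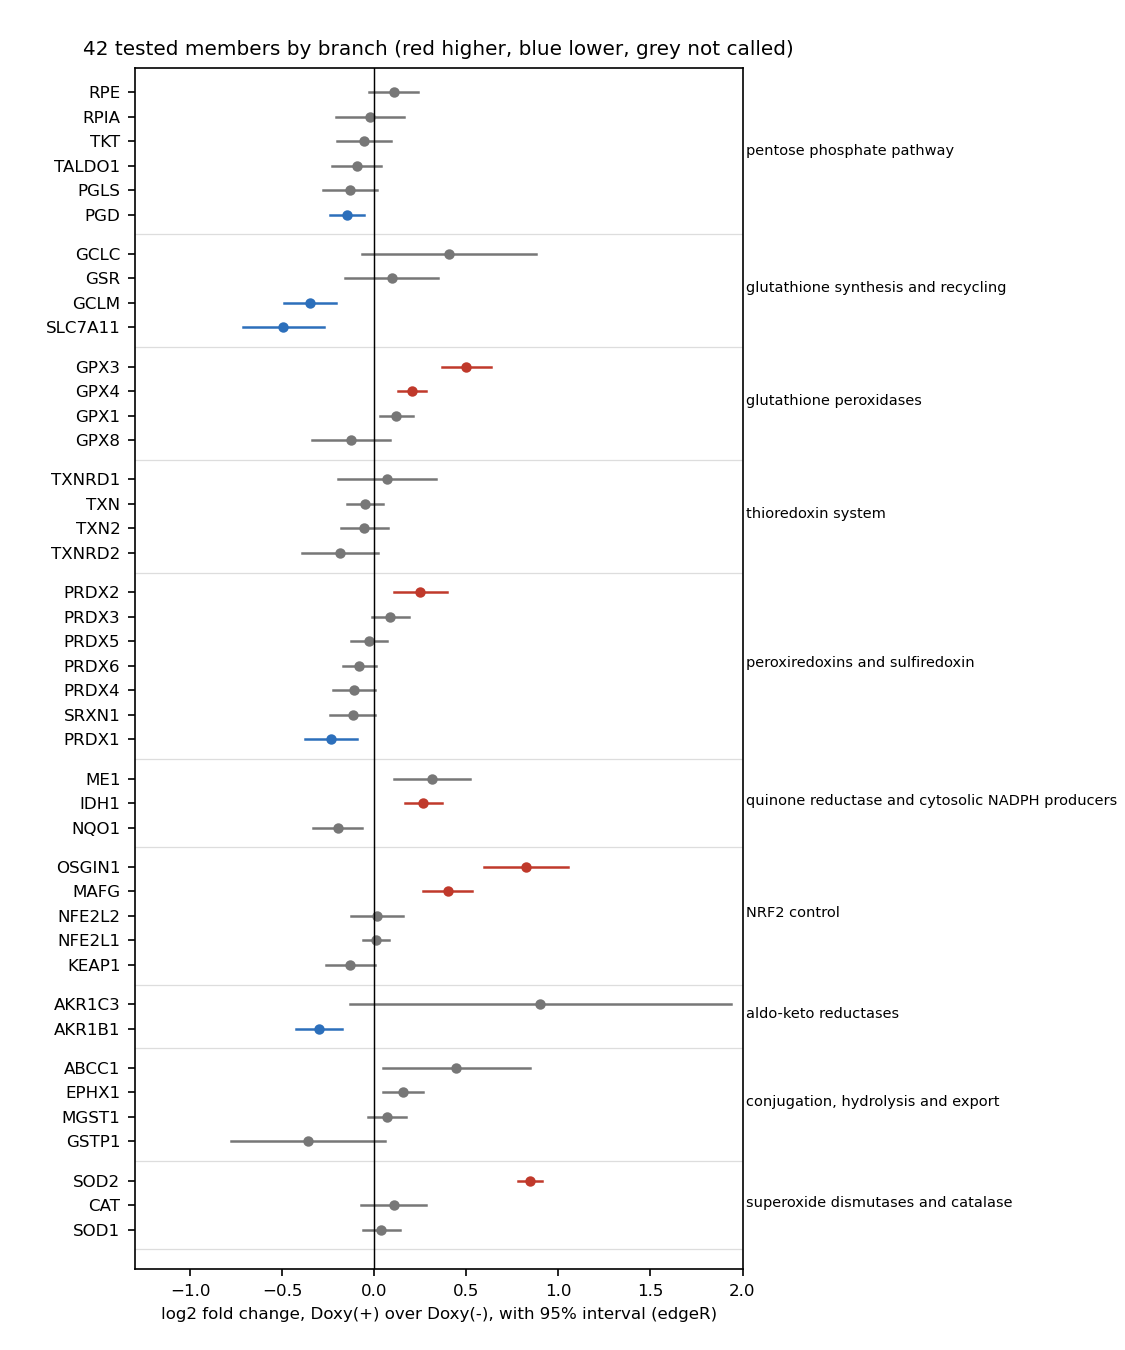
The log2 fold change of Doxy(+) over Doxy(-) (horizontal axis) of the 42 tested members, grouped by branch on the vertical axis, with the 95% interval from edgeR. Red intervals are called higher, blue called lower and grey not called. SOD2 at 0.84 and OSGIN1 at 0.82 stand farthest right among the called members and SLC7A11 at -0.49 farthest left, and AKR1C3, a gene with few reads, has the widest interval.

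For the members with the largest called changes, the RefSeq promoter windows (GRCh38.p14, 250 bases before to 50 after a transcript start, printed 5′ to 3′ on the gene's strand) are shown so that the motifs named below can be seen in place. They were searched on both strands for TGACNNNGC, the core of the antioxidant response element, for TGACTCA, the AP-1 core, which can overlap the first motif, and for the E-box CACGTG. Capitals mark a match. OSGIN1 holds TGACTCA 97 bases before its start, MAFG holds CACGTG 16 bases before, and GCLM holds the antioxidant response element core on the other strand 34 bases before. The windows of SOD2 and GPX3 hold none of these letters. The SOD2 window shown is, of 4 windows, the one at the start of the transcript with the largest share of its reads.
SOD2, chr6:159693192-159693491, minus strand: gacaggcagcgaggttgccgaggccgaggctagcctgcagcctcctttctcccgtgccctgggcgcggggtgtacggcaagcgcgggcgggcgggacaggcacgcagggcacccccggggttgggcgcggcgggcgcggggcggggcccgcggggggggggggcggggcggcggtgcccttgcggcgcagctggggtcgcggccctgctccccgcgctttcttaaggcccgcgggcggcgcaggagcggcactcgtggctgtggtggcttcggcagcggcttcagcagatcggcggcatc
OSGIN1, chr16:83952990-83953289, plus strand: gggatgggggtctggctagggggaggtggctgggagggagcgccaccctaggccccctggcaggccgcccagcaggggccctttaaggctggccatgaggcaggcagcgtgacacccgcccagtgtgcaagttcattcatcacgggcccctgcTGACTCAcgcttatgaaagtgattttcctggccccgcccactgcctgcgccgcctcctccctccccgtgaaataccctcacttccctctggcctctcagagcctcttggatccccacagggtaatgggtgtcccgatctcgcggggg
GPX3, chr5:151020341-151020640, plus strand: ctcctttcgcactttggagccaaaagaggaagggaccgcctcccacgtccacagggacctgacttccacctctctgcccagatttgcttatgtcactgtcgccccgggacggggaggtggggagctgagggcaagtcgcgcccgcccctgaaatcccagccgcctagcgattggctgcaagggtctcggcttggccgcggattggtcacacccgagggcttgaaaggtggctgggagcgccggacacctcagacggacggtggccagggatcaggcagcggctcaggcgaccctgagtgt
MAFG, chr17:81927686-81927985, minus strand: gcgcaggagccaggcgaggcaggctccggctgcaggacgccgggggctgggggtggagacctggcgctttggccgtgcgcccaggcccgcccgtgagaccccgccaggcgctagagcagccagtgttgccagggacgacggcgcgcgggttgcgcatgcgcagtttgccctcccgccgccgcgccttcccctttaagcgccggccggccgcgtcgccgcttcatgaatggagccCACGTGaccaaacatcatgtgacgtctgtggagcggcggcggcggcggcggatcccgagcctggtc
GCLM, chr1:93909381-93909680, minus strand: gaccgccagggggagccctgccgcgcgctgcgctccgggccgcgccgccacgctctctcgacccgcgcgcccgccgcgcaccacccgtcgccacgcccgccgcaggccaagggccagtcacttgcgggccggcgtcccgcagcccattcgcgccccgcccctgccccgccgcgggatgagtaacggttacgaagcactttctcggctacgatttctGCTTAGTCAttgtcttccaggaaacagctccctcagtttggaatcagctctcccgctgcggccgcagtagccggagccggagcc

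Windows were found for 39 of the 48 members, 58 windows in all. The antioxidant response element core was in 12 of the 58 (20.7%), beside 13.3% of the 35116 windows of all genes, and these belong to 11 members, EPHX1, GCLM, GPX2, GSTP1, IDH1, KEAP1, ME1, MGST1, PGD, RPE and TXNRD1. Among members with a window it was present in 1 of 7 called higher (IDH1), 2 of 3 called lower (GCLM and PGD) and 7 of 25 not called, and GPX2 was not tested. TGACTCA was in 3 windows (5.17%, of OSGIN1, ME1 and GSTP1) beside 4.95% of all, and CACGTG in 4 (6.90%, of MAFG, GPX1, PRDX3 and PRDX4) beside 7.26%. A match describes letters in a short window and is not a bound site.

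The first branch, the pentose phosphate pathway, carried 1 lower member of 6 and 0 higher. Beside 9.81% higher and 9.59% lower among all genes, counts called among 2 to 7 tested members describe a branch and set none apart. PGD, the 6-phosphogluconate dehydrogenase that makes NADPH (chromosome 1, 10398592 to 10420511), was at 222 and 224 CPM in Doxy(-) against 206 and 197 CPM in Doxy(+). It fell by 0.15 on the log2 scale (95% interval -0.24 to -0.05, edgeR adjusted p 0.044), the smallest of the called changes. The groups did not overlap, but the call was lost in each of the 4 fits without 1 library (adjusted p from 0.0536 to 0.277) and with DESeq2 (0.162). PGLS, which hydrolyses the preceding lactone, stood at 42.6 and 41.1 against 37.4 and 39.0 CPM (edgeR adjusted p 0.188). The genes of the non-oxidative arm, which interconverts sugar phosphates, were not called either, with log2 fold changes of -0.10 for TALDO1, -0.06 for TKT, -0.02 for RPIA and 0.11 for RPE. Their 95% intervals lay within -0.23 and 0.24. Summed over the 6 genes, the branch amounted to 565 and 558 TPM in Doxy(-) and 545 and 540 TPM in Doxy(+). An annotated gene on the opposite strand, KANSL1L, overlaps exons of RPE, and 11 unassigned identifiers repeat TKT transcripts, so these 2 values are less certain.

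Glutathione synthesis held the 2 lower genes with the largest decreases. SLC7A11, the cystine transporter subunit that supplies cysteine (chromosome 4, 138164097 to 138242349), was at 29.2 and 30.4 CPM without doxycycline and at 22.6 and 19.9 CPM with it, so both treated libraries were lower. The mean went from 29.8 ± 0.810 to 21.2 ± 1.90 CPM (SD, n = 2 each), and the log2 fold change was -0.49 (edgeR adjusted p 0.014, SE 0.0899). Without Doxy(+) 2 it was -0.41 and no longer called (edgeR adjusted p 0.0707, against a range of 0.00526 to 0.132 over all settings). With length-scaled counts the decrease came to -1.09, and its TPM were 7.97 and 5.69 in Doxy(-) and 3.49 and 3.06 in Doxy(+). Its full-length transcript SLC7A11-201, which like every transcript of a gene other than SOD2 and OSGIN1 was chosen after its values were seen, held 93.6% and 98.0% of the count of the gene in Doxy(-) and 100% in both Doxy(+) libraries. In Doxy(-) it held 353 and 438 of 377 and 447 estimated reads. Per length SLC7A11-201 was at 4.11 and 4.44 TPM in Doxy(-) and 3.49 and 3.06 TPM in Doxy(+). Most of the fall in the TPM of the gene thus lay in the few reads outside that transcript. No RefSeq window of SLC7A11 was used here.

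GCLM, the modifier subunit of glutamate-cysteine ligase (chromosome 1, 93885199 to 93909456), whose promoter is shown above with its antioxidant response element core, likewise fell. It was measured at 60.9 and 65.0 CPM in Doxy(-) against 49.2 and 49.7 CPM in Doxy(+), with no overlap. Its log2 fold change was -0.35 (edgeR adjusted p 0.0106, SE 0.059). Per length it changed less, from 40.6 and 37.5 TPM to 31.8 and 36.3 TPM, and with length-scaled counts the log2 fold change was -0.23 and not called (edgeR adjusted p 0.213). It was also not called without Doxy(+) 1 or without Doxy(+) 2 (edgeR adjusted p 0.0698 and 0.0597). The longest transcript, GCLM-201, was at 667 and 844 estimated reads against 548 and 554, and GCLM-203, a shorter one with no defined coding sequence, at 116 and 110 against 85.4 and 111, where the groups overlapped.

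GCLC, the catalytic subunit of the same ligase, had the opposite sign and was not called. Its level was 6.77 and 9.24 CPM in Doxy(-) against 9.65 and 11.6 CPM in Doxy(+), a log2 fold change of 0.40 with a 95% interval of -0.07 to 0.88 (edgeR adjusted p 0.207). That sign turned with length-scaled counts, to -0.15. The counts behind it were small and spread over several transcripts that did not move together. GCLC-210, with no defined coding sequence and the largest share (27.4%), held 31.5 and 57.6 estimated reads in Doxy(-) against 22.7 and 26.0 in Doxy(+). The coding GCLC-205 held 18.6 and 7.28 against 39.1 and 63.4, and GCLC-201, a retained intron, 10.9 and 20.4 against 23.1 and 27.5. The files used here hold 11 of 14 annotated GCLC transcripts. GSR, the reductase that regenerates reduced glutathione, was not called (12.4 and 13.0 against 13.4 and 13.7 CPM, log2 fold change 0.09, edgeR adjusted p 0.58). For GSS, the synthetase of the second step, the files used here hold 1 of the 28 annotated transcripts, with estimated counts of 0 and 0 in Doxy(-) and 6.51 and 7.97 in Doxy(+). A count of 0 allows up to 3 reads. GSS did not pass the low-count filter, it was called higher when no filter was applied, and its other transcripts were not analysed here.

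The glutathione peroxidases, which reduce peroxides with glutathione, included 2 higher and 0 lower of the 4 tested. GPX3, the secreted form for which the proximal tubule is a main source (chromosome 5, 151020591 to 151028988), was at 69.2 and 71.5 CPM in Doxy(-) against 96.4 and 103 CPM in Doxy(+). The 2 treated libraries were both higher, and the mean rose 1.41-fold from 70.4 ± 1.64 to 99.5 ± 4.42 CPM (SD, n = 2 each), a log2 fold change of 0.50 (edgeR adjusted p 0.00234, SE 0.0547). GPX4, which reduces lipid hydroperoxides in membranes and holds back ferroptosis (chromosome 19, 1103982 to 1106791), rose by 15.1%. It went from 374 and 384 CPM to 434 and 439 CPM (log2 fold change 0.20, edgeR adjusted p 0.00732), and per length from 838 and 848 TPM to 1014 and 1040 TPM. The call of GPX4 was lost without Doxy(+) 1 or without Doxy(+) 2 (edgeR adjusted p 0.0585 and 0.0712, within a range of 0.00192 to 0.168 over all settings). The cytosolic GPX1 had the same sign, at 257 and 245 against 270 and 275 CPM, and just missed the threshold (log2 fold change 0.12, 95% interval 0.03 to 0.21, edgeR adjusted p 0.0759), and was called without Doxy(-) 1 at 0.15 (edgeR adjusted p 0.0339). The files used here hold 3 of 14 annotated GPX1 transcripts. GPX8, a peroxidase of the endoplasmic reticulum, had overlapping groups (69.4 and 58.8 against 59.7 and 57.6 CPM, log2 fold change -0.13, edgeR adjusted p 0.373). Without Doxy(-) 2 it was called lower at -0.24 (edgeR adjusted p 0.0488), and without Doxy(-) 1 its log2 fold change was -0.00689. GPX2, the gut form, was under 1 CPM in every library and was not tested. The branch summed to 1336 and 1312 TPM in Doxy(-) and to 1563 and 1593 TPM in Doxy(+), most of it GPX4 and GPX1.

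The thioredoxin system gave 0 called genes of 4 by edgeR, also 0 at an unadjusted p under 0.05, and 0 with DESeq2. Cytosolic thioredoxin TXN was at 257 and 250 CPM in Doxy(-) against 251 and 238 CPM in Doxy(+), a log2 fold change of -0.05 with a 95% interval of -0.15 to 0.05. Its reductase TXNRD1, a selenoprotein, overlapped between groups (37.3 and 32.8 against 40.1 and 33.3 CPM), and its log2 fold change of 0.07 (edgeR adjusted p 0.713) turned to -0.26 with length-scaled counts. The mitochondrial pair, TXN2 and TXNRD2, was at -0.05 and -0.19 (edgeR adjusted p 0.525 and 0.185). TXNRD2 was measured at 33.0 and 29.1 CPM in Doxy(-) against 27.4 and 27.0 CPM in Doxy(+). These intervals leave room for changes of up to -0.40 for TXNRD2 and 0.34 for TXNRD1.

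Thioredoxin feeds the peroxiredoxins, of which 1 was higher and 1 lower. PRDX2, abundant in red cells and present in most cytosols (chromosome 19, 12796820 to 12801800), was at 70.0 and 74.7 CPM in Doxy(-) against 83.5 and 88.7 CPM in Doxy(+), a rise of 18.8% (log2 fold change 0.25, edgeR adjusted p 0.034, SE 0.0593). PRDX1, the most abundant member of the group in these cells (chromosome 1, 45510914 to 45542732), was at 769 and 690 CPM without and 639 and 601 CPM with doxycycline. It fell by 0.24 on the log2 scale (edgeR adjusted p 0.0379, SE 0.058), and per length it went from 1339 and 1207 TPM to 1123 and 1054 TPM. Both calls depended on single libraries. PRDX2 was not called without Doxy(-) 1, Doxy(+) 1 or Doxy(+) 2 (edgeR adjusted p 0.0823, 0.0872 and 0.184) or with DESeq2 (0.13), and PRDX1 not without Doxy(+) 1 or Doxy(+) 2 (edgeR adjusted p 0.0676 and 0.161). Pseudogenes named after PRDX2 number 4, and after PRDX1 1, so reads can be divided among the copies. The others were not called. The mitochondrial PRDX3 was at 0.09 on the log2 scale, PRDX4 of the secretory pathway at -0.11, PRDX5 at -0.03 and PRDX6, which uses glutathione, at -0.08, with edgeR adjusted p from 0.155 to 0.66. PRDX3 was called without Doxy(-) 1, at 0.13 (edgeR adjusted p 0.0462). SRXN1, the sulfiredoxin that repairs overoxidised peroxiredoxins and a common readout of NRF2, was at 87.6 and 84.3 against 78.3 and 80.2 CPM (log2 fold change -0.12, 95% interval -0.24 to 0.00459, edgeR adjusted p 0.162).

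Of the enzymes that make or use cytosolic NADPH, IDH1, the cytosolic isocitrate dehydrogenase (chromosome 2, 208236229 to 208266074), rose. It was at 98.1 and 98.9 CPM in Doxy(-) against 118 and 119 CPM in Doxy(+), with replicates within 1 CPM of each other, and the rise was 20.3% (log2 fold change 0.27, edgeR adjusted p 0.00794, SE 0.0416). Without Doxy(+) 1 or Doxy(+) 2 its adjusted p was 0.0655 and 0.063 by edgeR, within 0.00467 to 0.14 over all settings. ME1, malic enzyme, and NQO1, the quinone reductase that is a textbook NRF2 target, lay just outside the threshold in opposite directions. ME1 was at 38.1 and 39.0 against 51.6 and 44.1 CPM (log2 fold change 0.31, edgeR adjusted p 0.0515), and was called without Doxy(+) 2 at 0.42 (edgeR adjusted p 0.0324), with the replicate number as a block (0.0429) and with no low-count filter (0.0354). NQO1 was at 100.4 and 94.8 against 82.8 and 87.1 CPM (log2 fold change -0.20, edgeR adjusted p 0.0529), and was called without Doxy(-) 2 at -0.24 (edgeR adjusted p 0.0332) and with no low-count filter (0.0391).

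The genes listed under NRF2 control did not move together. NFE2L2, which encodes NRF2, was at 141 and 153 CPM in Doxy(-) against 143 and 154 CPM in Doxy(+), with overlapping groups and a log2 fold change of 0.02 (95% interval -0.13 to 0.16, edgeR adjusted p 0.883). As background, the NRF2 protein is controlled mainly by degradation rather than by its RNA level. The NFE2L2 transcripts used here are 12 of 65 annotated. Of these, NFE2L2-205 was at 614 and 711 estimated reads against 900 and 898 and NFE2L2-201 at 460 and 599 against 240 and 480. KEAP1 was at 98.6 and 92.1 against 85.5 and 88.6 CPM (log2 fold change -0.13, 95% interval -0.26 to 0.00288, edgeR adjusted p 0.157). NFE2L1, a related factor that maintains proteasome genes, was at 435 and 434 against 439 and 436 CPM, with an interval of the log2 fold change from -0.06 to 0.08.

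MAFG and OSGIN1, in contrast, rose. MAFG, a small MAF protein that partners NRF2 (chromosome 17, 81918270 to 81927735), was at 77.7 and 72.7 CPM in Doxy(-) against 97.6 and 100 CPM in Doxy(+). Both treated libraries were above both controls, and the log2 fold change was 0.40 (edgeR adjusted p 0.00503, SE 0.0543). Its promoter above holds the E-box CACGTG. SIRT7 overlaps MAFG on the same strand and was at 0.18 (edgeR adjusted p 0.0813). OSGIN1, an oxidative stress-induced growth inhibitor (chromosome 16, 83931311 to 83966332), was at 12.8 CPM in each Doxy(-) library and at 21.9 and 23.4 CPM in Doxy(+). This is 1.77-fold, or a log2 fold change of 0.82 (95% interval 0.60 to 1.05, edgeR adjusted p 0.00268, SE 0.0936). Its main transcript OSGIN1-203, which starts in the window printed above, was at 144 and 180 estimated reads in Doxy(-) against 264 and 275 in Doxy(+). MLYCD, whose exons overlap on the same strand, was at 0.19 (edgeR adjusted p 0.358).

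Of the aldo-keto reductases among the 48 members, enzymes that reduce aldehydes and ketones with NADPH, AKR1B1 was lower and the others were scarcely present. AKR1B1, aldose reductase, the first enzyme of the polyol pathway (chromosome 7, 134442356 to 134459284), had the highest level per length of all 48 members. It was at 4110 and 3683 CPM in Doxy(-) against 3183 and 3146 CPM in Doxy(+), or 4567 and 4065 against 3646 and 3577 TPM. The mean fell from 3896 ± 302 to 3164 ± 25.9 CPM (SD, n = 2 each), by 18.8%, a log2 fold change of -0.30 (edgeR adjusted p 0.0107, SE 0.0509). The 2 Doxy(-) libraries differed by more than the 2 Doxy(+) libraries did. AKR1B1-201 held between 93.5% and 93.8% of the count of the gene in every library, and 8 pseudogenes bear its name. AKR1C3, a hydroxysteroid dehydrogenase, was at 0.605 and 0.470 CPM against 0.977 and 1.03 CPM, that is 7.80 and 6.90 against 12.6 and 13.8 estimated reads, and was not called (log2 fold change 0.90, 95% interval -0.13 to 1.94, edgeR adjusted p 0.20). AKR1B10, AKR1C1 and AKR1C2, whose sequences are close to those of AKR1B1 and AKR1C3, held at most 9.75, 4.23 and 0.577 estimated reads in any library, and were not tested.

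Conjugation, hydrolysis and export gave 0 called of 4 tested by edgeR, with 2 at an unadjusted p under 0.05, EPHX1 and ABCC1, and 0 by DESeq2. EPHX1, the microsomal epoxide hydrolase, was at 95.9 and 97.4 against 110 and 106 CPM (log2 fold change 0.16, 95% interval 0.05 to 0.27, edgeR adjusted p 0.0608). ABCC1, which exports glutathione conjugates, depended on 1 control library. It was at 101 and 68.9 CPM in Doxy(-) against 120 and 111 CPM in Doxy(+), so the controls differed from each other by more than the treated libraries did (log2 fold change 0.45, edgeR adjusted p 0.117, SE 0.165). Without Doxy(-) 1 the log2 fold change was 0.74 and called (edgeR adjusted p 0.00056), and without Doxy(-) 2 it was 0.19 (0.0907). With the replicate number as a block ABCC1 was called as well, at 0.46 (edgeR adjusted p 0.0217). MGST1, a membrane glutathione transferase, was at 0.07 (edgeR adjusted p 0.321). GSTP1, the pi-class glutathione transferase, was at 9.26 and 12.3 against 8.56 and 8.30 CPM (log2 fold change -0.36, edgeR adjusted p 0.203), and was called without Doxy(-) 1 at -0.56 (edgeR adjusted p 0.0461). ABCC2, the apical counterpart of ABCC1, held at most 1.70 estimated reads in any library, from 2 of 10 annotated transcripts, and was not tested.

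The largest called change of all members was in the last branch. SOD2, the manganese superoxide dismutase of mitochondria (chromosome 6, 159669069 to 159762529, minus strand), was at 740 and 755 CPM in Doxy(-) against 1347 and 1337 CPM in Doxy(+). Both treated libraries were well above both controls, and the mean rose by 79.6%, from 747 ± 10.4 to 1342 ± 7.15 CPM (SD, n = 2 each), a log2 fold change of 0.84 (95% interval 0.78 to 0.91, edgeR adjusted p 5.17e-05, SE 0.027). Per length it went from 552 and 561 TPM to 990 and 1018 TPM. Over all settings its log2 fold change lay between 0.82 and 0.86. The cytosolic SOD1, by contrast, was at 154 and 161 against 164 and 160 CPM (log2 fold change 0.04, 95% interval -0.06 to 0.14), and CAT, the peroxisomal catalase, at 27.9 and 26.3 against 29.1 and 29.2 CPM (0.10, -0.07 to 0.28). Neither was called (edgeR adjusted p 0.587 and 0.373), and the difference between SOD2 and the other 2 genes was not itself tested.

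The rise of SOD2 was not the same in all of its transcripts. SOD2-215, annotated as a target of nonsense-mediated decay, took 67.4% of the count of the gene and was at 5996 and 6916 estimated reads in Doxy(-) against 12177 and 12637 in Doxy(+). Its share went from 62.9% and 62.4% to 70.2% and 70.4%. These are shares of reads, which favour long transcripts, and SOD2-215 is 4302 bases long against 990 for SOD2-203. Per length SOD2-215 was at 159 and 159 TPM in Doxy(-) and 332 and 329 TPM in Doxy(+). The whole gene was at 552 and 561 TPM in Doxy(-) and 990 and 1018 TPM in Doxy(+). The coding SOD2-203 was at 1098 and 1008 against 1974 and 1840 estimated reads, so its groups were also apart. In TPM SOD2-203 was at 137 and 110 in Doxy(-) and 254 and 226 in Doxy(+). SOD2-210, coding and with a long 3′ end, was at 1391 and 1731 against 1560 and 1491 estimated reads, where the groups overlapped, and its share fell from 14.6% and 15.6% to 8.99% and 8.30%. Reads that fit several transcripts were divided by the authors' software, and the shares were not tested. Exons of ACAT2 and WTAP overlap SOD2 on the opposite strand, and neither was called (log2 fold changes -0.12 and 0.01, edgeR adjusted p 0.457 and 0.888).

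**Figure D3:**
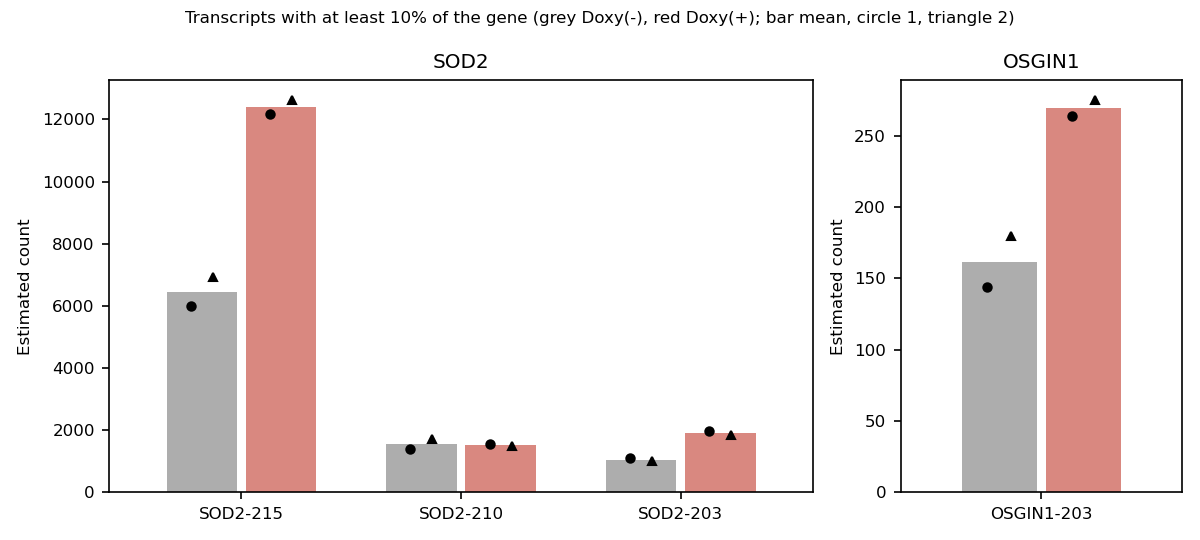
Estimated count (vertical axis, from 0) of the transcripts that hold at least 10% of SOD2 or OSGIN1, in Doxy(-) (grey) and Doxy(+) (red), with bars for the group means, circles for library 1 and triangles for library 2. SOD2-215, SOD2-203 and OSGIN1-203 are higher in both Doxy(+) libraries, whereas SOD2-210 overlaps between the groups.

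Across the 48 members the levels per length spanned a wide range while their sum stayed close, at 11850 and 11205 TPM in Doxy(-) and 11500 and 11348 TPM in Doxy(+). AKR1B1 came first with a Doxy(-) mean of 4316 TPM, followed by PRDX1 with 1273, GPX4 with 843, SOD2 with 556 and TXN with 471 TPM. In Doxy(+) SOD2, with a mean of 1004 TPM, stood next to GPX4 with 1027 TPM and PRDX1 with 1089 TPM. At the low end of the tested members were OSGIN1 with 11.4, SLC7A11 with 6.83 and AKR1C3 with 0.613 TPM in Doxy(-). The next in order, MGST1 with a Doxy(-) mean of 424 TPM, ranged from 421 to 458 TPM over the 4 libraries and overlapped TXN, which ranged from 457 to 483 TPM.

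**Figure D4:**
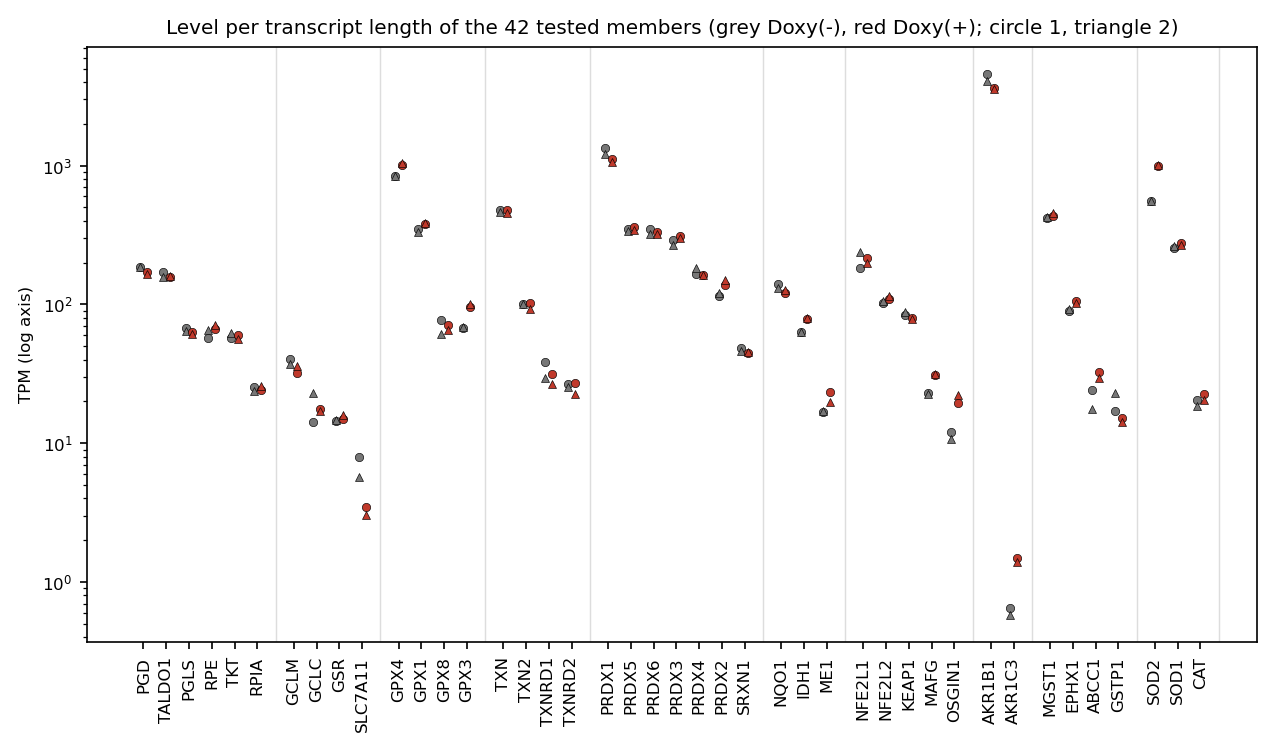
Level in TPM (vertical log axis) of the 42 tested members along the horizontal axis, grouped by branch and ordered within it by the Doxy(-) mean, with grey points for Doxy(-) and red for Doxy(+). The points of a gene lie close together next to the range between genes, from AKR1C3 at 0.613 to AKR1B1 at 4316 TPM in Doxy(-). SOD2 goes from a mean of 556 to 1004 TPM.

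The other genes of these pathways were followed through a list of 92 genes, of which 78 were tested. At an edgeR adjusted p under 0.05, 20 were higher (25.6%, beside 9.81% of all genes) and 5 lower (6.41%, beside 9.59%), and 53 were not called. The list was chosen with earlier results of these data known, so these shares do not test it. With DESeq2 10 were higher, and with length-scaled counts 7, where the share of all genes is not given here. Past both limits in the main edgeR test were 3, all higher. SQSTM1, the p62 autophagy receptor that binds KEAP1, was at 43.6 and 44.1 CPM in Doxy(-) against 148 and 215 CPM in Doxy(+) (log2 fold change 2.05, edgeR adjusted p 0.000976, SE 0.176), the treated libraries differing widely. HMOX1, heme oxygenase, was at 42.0 and 40.6 against 108 and 105 CPM (log2 fold change 1.37, edgeR adjusted p 7.6e-05, SE 0.0521). TRIM16L, annotated as a long noncoding RNA, went from a mean of 2.64 ± 0.204 to 6.84 ± 0.678 CPM (SD, n = 2 each, log2 fold change 1.36, edgeR adjusted p 0.00713, SE 0.207). Of the others the smallest p-values among the higher genes belonged to FTL, the ferritin light chain, at 2389 and 2453 against 4571 and 4503 CPM (log2 fold change 0.91, edgeR adjusted p 4.11e-05), GLRX, glutaredoxin, at 0.61, and FTH1, the ferritin heavy chain, at 0.35. Among the lower genes they belonged to ABCC3, an exporter related to ABCC1, at -0.98, to TXNIP, which binds thioredoxin, at -0.48, and to NFE2L3, a relative of NFE2L2, at -0.52.

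**Figure D5:**
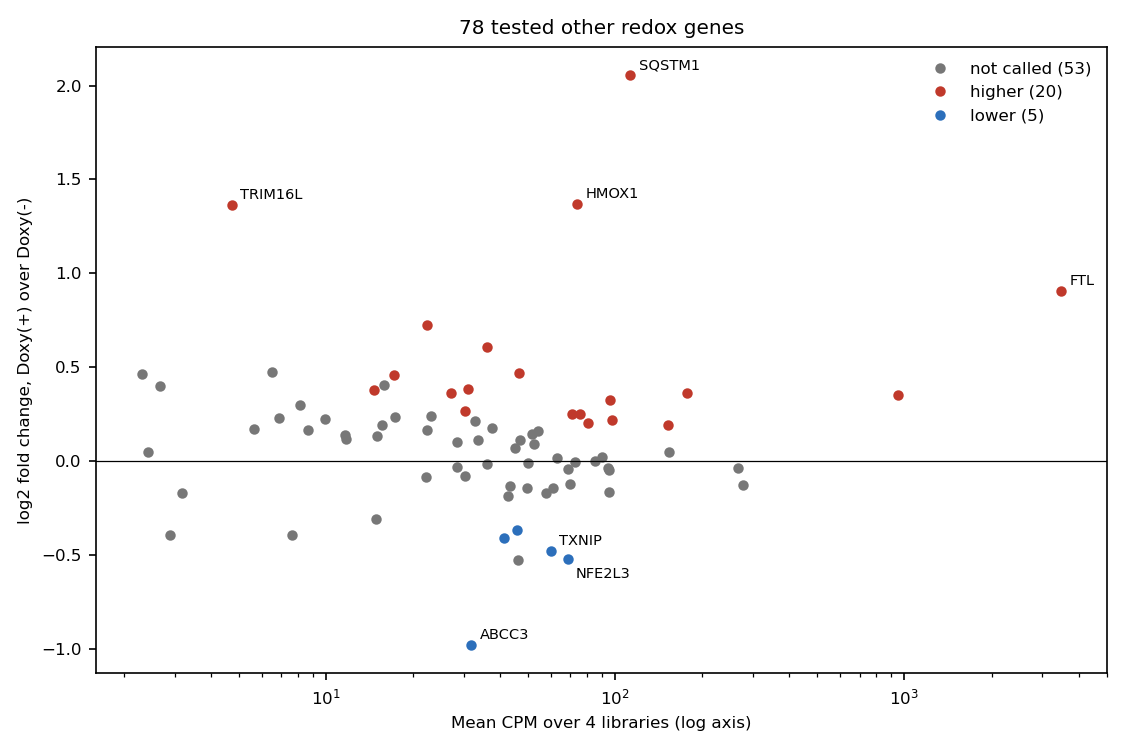
The log2 fold change of Doxy(+) over Doxy(-) (vertical axis) against the mean CPM over the 4 libraries (horizontal log axis) for the 78 tested genes of the wider redox list, with 20 called higher in red, 5 called lower in blue and 53 not called in grey. SQSTM1 at 2.05, HMOX1 at 1.37 and TRIM16L at 1.36 lie above the rest, and ABCC3 at -0.98 lies lowest.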

How the data were processed

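For 4 HK-2 libraries RNA was sequenced after stranded TruSeq library preparation, and the study's methods describe trimming, alignment to hg38 and quantification by RSEM. The submitters' processing notes name Trim Galore 0.6.6, cutadapt 2.5 and STAR 2.7.9a. The files have the columns kallisto writes, over 180253 Ensembl transcript identifiers, so which quantifier version, Ensembl release and strand setting were used is not given in the sources used here. The deposited estimated counts are expected counts, not normalized, in which the authors' quantifier divided shared reads among transcripts. The deposited TPM values sum to 1000000 in each library. Transcripts were assigned to gene symbols through GENCODE 44 (83.6% of identifiers), and counts and TPM were summed per symbol. Identifiers with no match carried 9.66% to 9.89% of each library and were left out of totals and tests, as no gene names them. Coordinates are GENCODE 44 on hg38.

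Summed counts were rounded and tested over 13542 genes with edgeR 4.0.16 (R 4.3.3) by glmQLFTest after TMM scaling and filterByExpr, with the group as the only term and Benjamini-Hochberg adjustment over all genes tested. Standard errors and 95% intervals come from the quasi-likelihood F statistic. The common biological coefficient of variation was 6.47%. Replicates of a group differed by more than sampling noise (chi-square per degree of freedom 4.02 and 2.88). A count of 0 allows up to 3 reads, or 0.204 to 0.233 CPM, for counting error only. The code was run on simulated counts with the same spread for every gene. This checks the code and not its error rate on these libraries. The alternatives were RLE factors, no filter, a mean of at least 1 CPM, DESeq2 1.42.0, limma 3.58.1 on log2(TPM + 1) and log2(TPM + 0.1) for genes with a mean of at least 1 TPM, length-scaled counts, unmatched copies added, the replicate number as a block and each library left out. Limma with a variance trend was added after the data had been seen.

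All 48 members were named whatever their result. TFE3 and PRCC were named as parts of the construct, and of the 92 other redox genes those past both limits and otherwise the 3 with the smallest p in each direction. By rule, transcripts were named where a called member changed by over 0.5 on the log2 scale and the transcript held at least 10% of its count. Only SOD2 and OSGIN1 met that rule, and the transcripts named for other genes were chosen after their values were seen. The members and lists were chosen with earlier results of these data known.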

Additional observations from a re-analysis of the deposited data

How the results depend on the processing

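The direction of each of the 12 called members was the same under all 15 settings, 13 of them planned, and that of TFE3 likewise, with its call. As all settings reuse the same 4 libraries, with groups apart in CPM for the 12, the kept directions are no independent support. The counts of 7 higher and 5 lower members moved by over 1.5 times as follows. Limma with 1 variance prior for all genes, on log2(TPM + 1) and on log2(TPM + 0.1), called 0 higher and 0 lower members (10 and 1 at an unadjusted p under 0.05 in each), 2 and 0 higher and 0 and 0 lower genes of the other redox list, and 68 and 14 of the 13281 genes it tested, with 0.0523 the smallest adjusted p of a member. With a variance trend it called 911 and 899 of these genes, 6 higher and 0 lower members, and 9 higher and 3 lower genes of the other list, where the main values are 20 and 5. Length-scaled counts left 3 lower members and 7 higher other genes, and put 1 lower member, SLC7A11 at -1.09, past both limits. Most of its fall in TPM lay outside SLC7A11-201, which was at 4.11 and 4.44 TPM in Doxy(-) and 3.49 and 3.06 TPM in Doxy(+). DESeq2 left 10 higher other genes. An adjusted p under 0.01 left 0 lower members and 8 higher and 3 lower other genes. Without a low-count filter 1 higher member, GSS, passed both limits, and since its Doxy(-) libraries are at 0 its fitted fold is no bound. Fits without 1 library called 4 to 9 higher and 1 to 6 lower members and 9 to 15 higher other genes; the fewest higher members came without Doxy(+) 1, the fewest lower without Doxy(+) 2. Except for limma, the share of all genes called in these settings is not given here, so a changed count is no result about the members. The cause was not tested for any of these changes.

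Over all tested genes same-numbered libraries did not deviate together (correlation of deviations -0.00914). Such a correlation can miss an effect on some genes, so it cannot show what the numbers mark. The main test treated the libraries as unpaired. With the replicate number as a block 9 higher and 4 lower members were called, PGD losing its call (edgeR adjusted p 0.0532) and ME1 and ABCC1 gaining one.

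Signs turned only for members that were not called. Under both kinds of limma, on log2(TPM + 1) and log2(TPM + 0.1), the log2 fold change was 0.0187 and 0.0194 for RPIA, -0.0628 and -0.0640 for GCLC, -0.207 and -0.212 for TXNRD1, 0.0250 and 0.0251 for PRDX5, and -0.0101 and -0.0101 for NFE2L1. Length-scaled counts gave -0.152 for GCLC, -0.257 for TXNRD1 and -0.0606 for NFE2L1. Without 1 library the values ranged from -0.116 to 0.00467 for TKT, from -0.0741 to 0.0240 for RPIA, from -0.0701 to 0.194 for TXNRD1, from -0.0625 to 0.00164 for PRDX5 and from -0.0446 to 0.0746 for NFE2L2.

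With 2 libraries a group, 6 members had too few reads to pass the low-count filter, AKR1C3 passed with a wide interval (-0.13 to 1.94), and for GSS, GPX1, NFE2L2 and ABCC2 most annotated transcripts were not used here.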
